A study of Mus musculus with 20 samples.

Results

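Calcium pumps and ryanodine receptors were followed through the cerebellar RNA-seq of the SCA7 mouse series. They are a set of 9 genes, chosen by name, with no measured value in the rule, and mapped by symbol to the Ensembl identifiers of the count table, out of 55401 genes in all. The set and the lists of other genes used below were nevertheless drawn up with earlier results of these data known. Atp2a2 and Atp2a3 encode SERCA pumps, Atp2b1, Atp2b2, Atp2b3 and Atp2b4 encode the plasma membrane pumps PMCA1 to PMCA4, and Ryr1, Ryr2 and Ryr3 encode the ryanodine receptors. All 9 members passed the filter on low counts in every comparison.

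The 20 libraries hold RNA from 1 mouse cerebellum each, of strain C57BL/6J, and the question they address is what the shRNA A4 does to the cerebellar transcriptome. The early libraries, labelled 9w, hold 3 AAV-shA4-treated and 3 untreated WT mice. The late libraries, labelled 25w, hold 5 SCA7 140Q/5Q knock-in mice treated with AAV-shA4, 5 such mice treated with AAV-shSCR and 4 untreated WT mice. Whether these weeks run from birth or from injection is not in the labels. The paper counts the times of both experiments from injection, and its late time is not the 25 weeks of the labels. AAV-shA4 carries an shRNA directed at the CAG repeat of Atxn7, the gene with the expanded repeat in SCA7 mice, and AAV-shSCR carries a scrambled shRNA. Both were given systemically in the PHP.eB serotype with an eGFP reporter, and per the methods untreated mice received saline. There is no untreated SCA7 group and no late WT group with a vector, so genotype and vector cannot be told apart in the comparisons to WT mice.

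Calcium enters the cytosol of a neuron from outside through channels and from the endoplasmic reticulum (ER) through 2 kinds of release channel, the ryanodine receptors and the IP3 receptors. SERCA pumps return it to the ER, and PMCA pumps push it out across the plasma membrane with calmodulin as activator. Purkinje cells (PCs) depend heavily on both routes, since their synaptic plasticity and their regular firing rest on brief calcium rises in dendrites and spines. Loss of PMCA2 alone makes mice ataxic, and PMCA3 mutations have been linked to ataxia in patients.

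Between 31465586 and 54570503 reads per library were counted on genes. In the early experiment the depth of the treated and untreated mice does not overlap. AAV-shA4-treated SCA7 replicate 1 and late WT replicate 1 stand apart on the first principal component, at −15.1 and −18.1 against −9.17 to 11.3 in the others, and have the highest summed choroid plexus markers, at 3316 and 3877 CPM. CPM are counts scaled to library size after TMM normalization. Without both libraries the number of members called in each late comparison was unchanged, at 3, 3 and 0. The transcript of Atxn7 ranged from 37.6 to 53.4 CPM over all libraries. The PC markers of the tissue were abundant, with 12 markers summing to at least 8968 CPM in every library, and 12 markers of skeletal and cardiac muscle, the other tissues known for SERCA and ryanodine receptors, summed to between 3.08 and 5.25 CPM. Replicates are separate mice, so the tests set differences between groups against the spread between animals.

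Because the shRNA pairs with CAG repeats, the longest run of CAG in the transcripts of each member was searched on the sense strand (GENCODE release M21, GRCm38). Atp2a3, Atp2b3, Ryr2 and Ryr3 hold a run of 3 CAG, and the longest run of the other 5 members is 2. Runs of 3 or more are found in 14.9% of 21897 protein-coding genes and runs of 6 or more in 0.954%. The 4 runs are printed with 6 bases on each side, from 5′ to 3′, and the capitals mark the CAG run.
Atp2a3: ccaagtCAGCAGCAGagatgg
Atp2b3: aagcccCAGCAGCAGcgggaa
Ryr2: aagccgCAGCAGCAGcttcag
Ryr3: gccgctCAGCAGCAGtgggta

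The run of Atp2a3 is coding and lies at chr11:72981813-72981821 on the plus strand. That of Atp2b3 is coding, at chrX:73523000-73523008 on the plus strand. That of Ryr2 lies in an untranslated region, at chr13:12106534-12106542 on the minus strand. That of Ryr3 is coding, at chr2:112750826-112750834 on the minus strand. A match to these letters is a description of the transcript, and whether the shRNA pairs with it was not tested.

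Both SERCA genes were lower in the 2 SCA7 groups than in every WT mouse. Atp2a2 (ENSMUSG00000029467, chr5:122453513-122502225, minus strand) encodes SERCA2, the housekeeping ER pump of neurons and other cells. The late WT mice had 1536, 1656, 1661 and 1604 CPM. In AAV-shSCR-treated SCA7 mice its values were 1146, 1156, 1156, 1118 and 1151 CPM, and in AAV-shA4-treated SCA7 mice 1153, 1126, 1294, 1169 and 1218 CPM. The SCA7 mice lie together below the WT mice, with the nearest AAV-shA4-treated mouse at replicate 3. Early levels were 1632, 1593 and 1535 CPM with AAV-shA4 and 1598, 1494 and 1438 CPM without. The 3 WT groups overlap one another. Compared to WT mice, Atp2a2 fell by 29.0% with AAV-shSCR (log2 fold change −0.49, 95% confidence interval −0.58 to −0.41, adjusted p = 1.71e-07, edgeR's quasi-likelihood F test, adjusted over all genes). It fell by 26.1% with AAV-shA4 (log2 fold change −0.44, interval −0.52 to −0.36, adjusted p = 7.56e-07 by the same test).

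**Figure D1:**
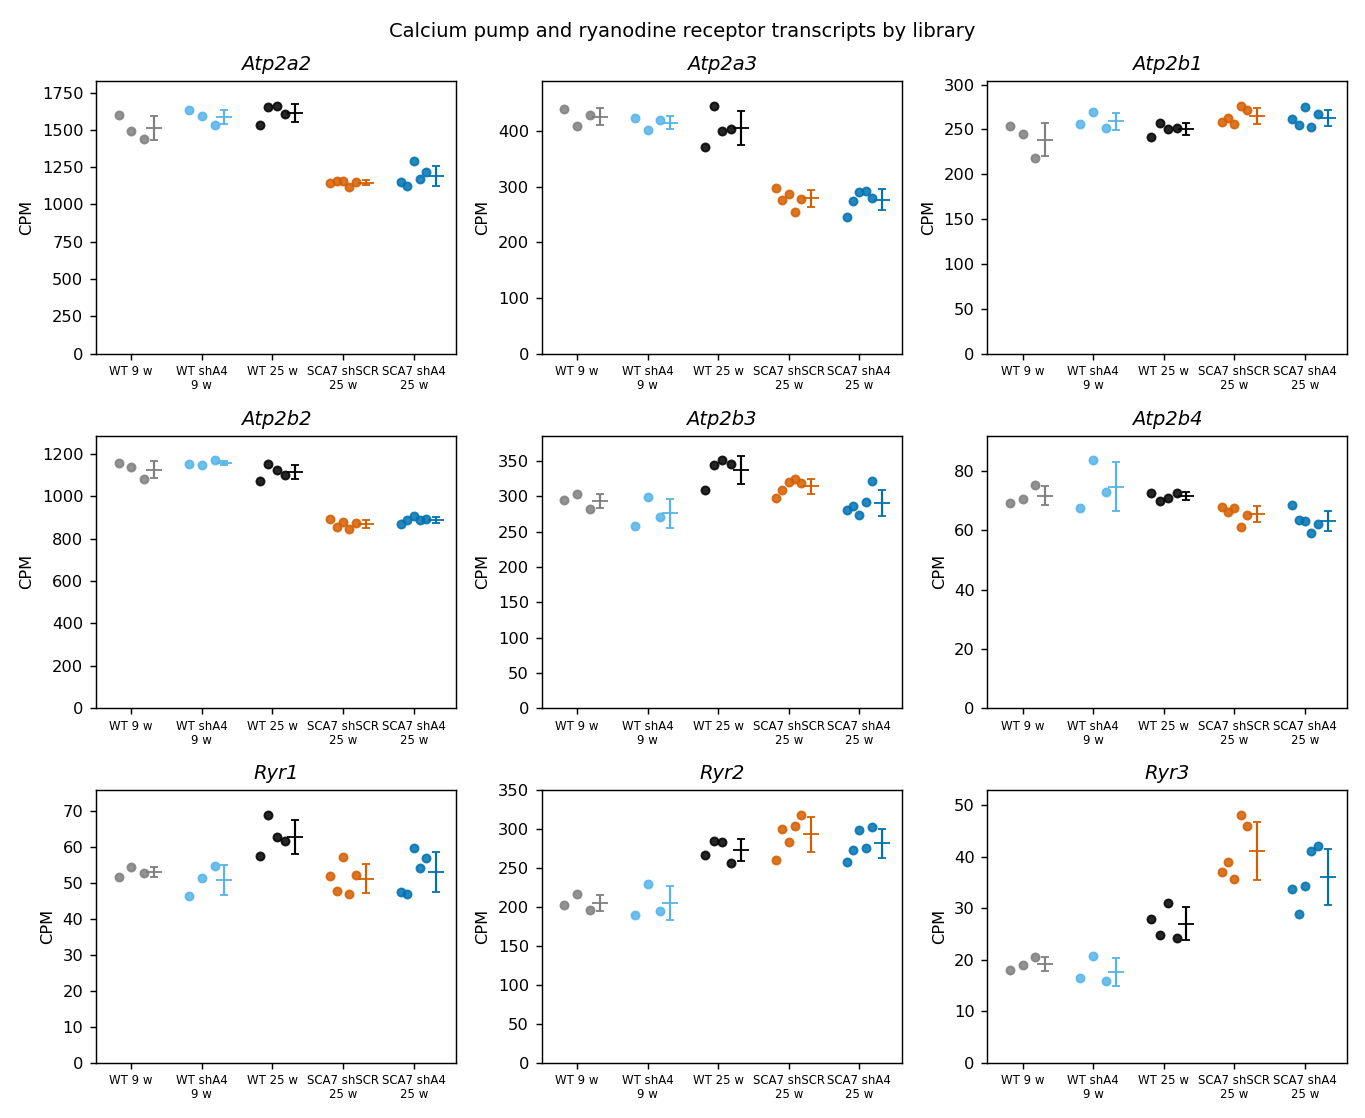
Normalized counts (CPM, vertical axis from 0) of the 9 members in the 5 groups, with 1 point per mouse and, beside the points, the group mean with its SD. Atp2a2, Atp2a3 and Atp2b2 sit lower in both SCA7 groups than in all WT mice, and Ryr2 and Ryr3 sit higher in the late than in the early mice.

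Atp2a3 (ENSMUSG00000020788, chr11:72961169-72993044, plus strand) encodes SERCA3, which in the cerebellum is known as a PC pump. The late WT mice had 372, 445, 401 and 403 CPM. AAV-shSCR-treated SCA7 mice had 298, 275, 288, 255 and 278 CPM, and AAV-shA4-treated SCA7 mice had 246, 274, 291, 292 and 280.2 CPM. The highest SCA7 mouse is below the lowest WT mouse. Atp2a3 fell by 31.2% with AAV-shSCR (log2 fold change −0.54, standard error 0.056, adjusted p = 4.52e-06 by edgeR) and by 31.8% with AAV-shA4 (log2 fold change −0.55, standard error 0.056, adjusted p = 3.84e-06 by edgeR). Its early values were 423, 401 and 420.5 CPM with AAV-shA4 and 439.6, 408 and 429.5 CPM in untreated WT mice. These overlap with the late WT mice.

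PC markers moved with the SERCA genes. All 12 PC markers had negative log2 fold changes with AAV-shSCR, with a median of −0.46 and 9 called lower, against 2.66% of all genes. All 12 had negative ones with AAV-shA4, with a median of −0.43 and 8 called lower, against 2.27%. Their sum was 8968 to 9917 CPM with AAV-shSCR, 9048 to 10395 CPM with AAV-shA4 and 13027 to 14429 CPM in the late WT mice. None of the 12 markers was at 0. In bulk cerebellum, fewer PCs and less RNA per PC cannot be told apart. Across the 14 late libraries the log2 CPM of Atp2a3 followed the log2 of this sum with r = 0.989, and with r = 0.932 after each group's mean was removed. For Atp2a2 the values were 0.971 and 0.560. These correlations describe libraries that share a group structure and have no test, and the part of PC markers in the lower SERCA levels was not tested. Some markers of other cells moved as well. At the adjusted p alone, 8.65% of all genes were lower and 6.89% higher with AAV-shSCR, and 8.11% and 5.47% with AAV-shA4. At this limit 11 of the 12 PC markers were lower in each comparison. Of 8 oligodendrocyte markers 4 were lower at that limit in each comparison, with medians of −0.26 for AAV-shSCR and −0.19 for AAV-shA4. Of 8 markers of Bergmann glia and astrocytes 4 were lower in each, with medians of −0.16 and −0.12, and of 9 markers of molecular layer interneurons 4 were lower in each, with medians of −0.08 and −0.10. All 6 choroid plexus markers had negative log2 fold changes, with medians of −0.24 and −0.59, and 0 passed. Other lists were mixed. Of 12 granule cell markers 3 were lower and 2 higher with AAV-shSCR, with a median of −0.05. With AAV-shA4 4 were lower and 2 higher, with a median of −0.14. Of 9 markers of endothelium and mural cells 3 were lower and 1 higher in each, with medians of −0.02 and −0.21. Of 7 microglia markers 0 passed, and of 3 blood markers 1 was higher with AAV-shSCR. With the fold limit as well, 3 oligodendrocyte and 2 endothelium and mural markers were called lower with AAV-shSCR. With AAV-shA4 these were 2 and 1. The blood marker was called higher with AAV-shSCR, and no marker of the other lists outside PCs was called.

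**Figure D2:**
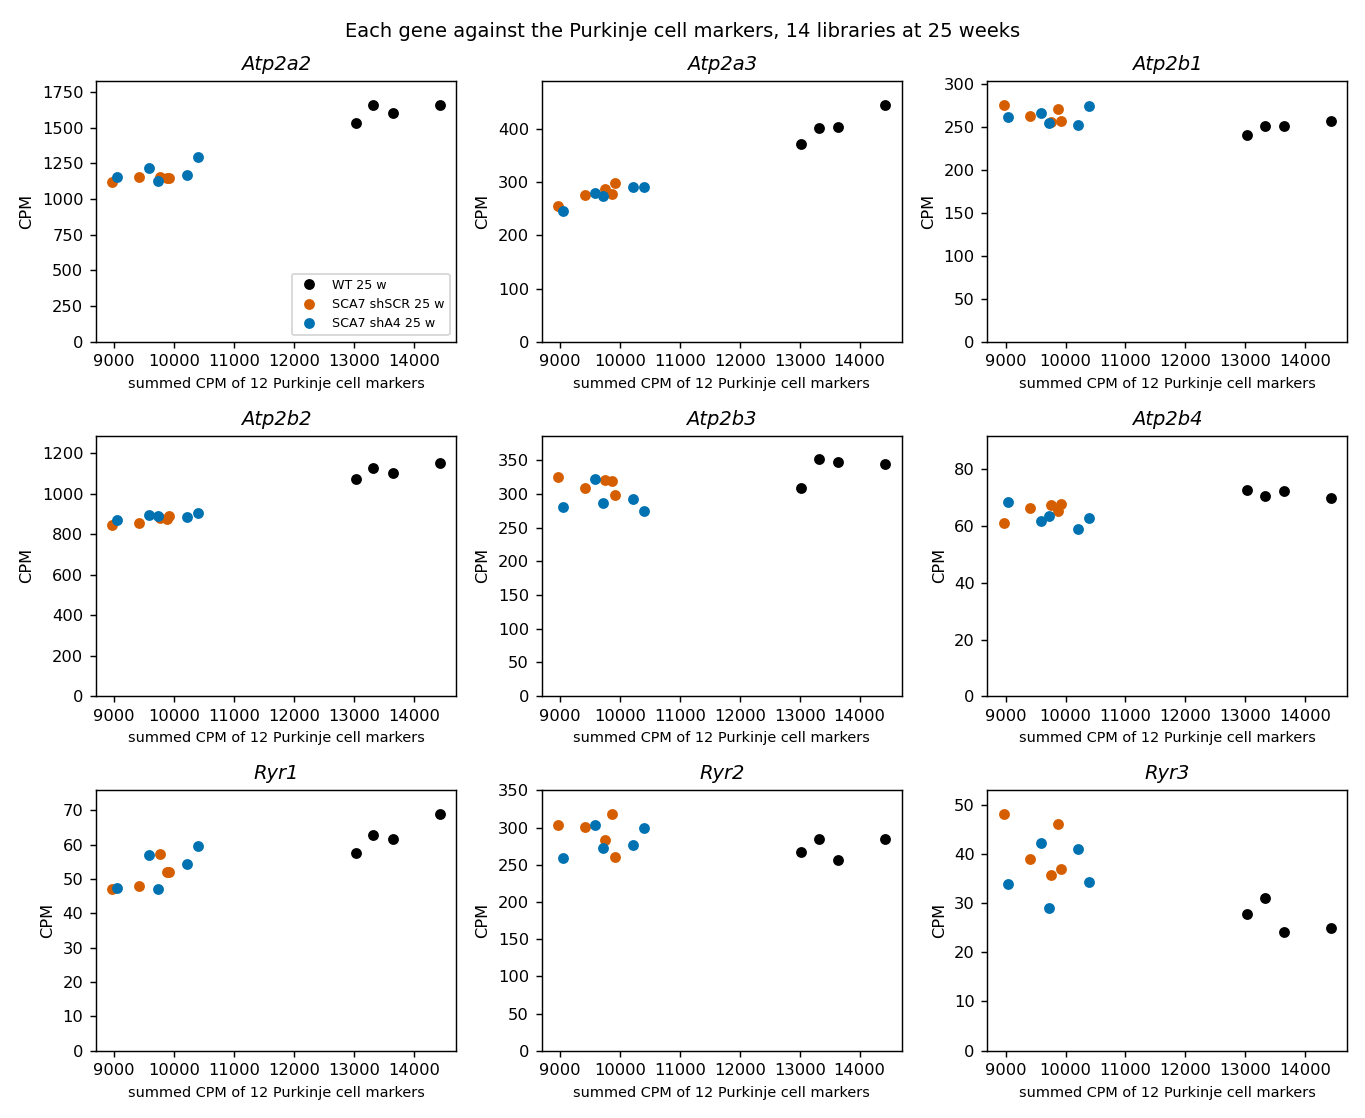
Member level (CPM, vertical axis from 0) against the summed CPM of 12 PC markers (horizontal axis, not from 0) in the 14 late libraries, 1 point per mouse, coloured by group. Atp2a3, Atp2b2 and Atp2a2 rise along the PC markers (r = 0.989, 0.986 and 0.971 on the log2 scale), and Ryr3 runs against them (r = −0.784).

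Of the 4 PMCA genes, Atp2b2 had the largest difference between WT mice and either SCA7 group. Atp2b2 (ENSMUSG00000030302, chr6:113743831-114042613, minus strand) encodes PMCA2, a fast pump of PC dendrites and spines and of sensory hair cells. Late WT mice showed 1074, 1153, 1125 and 1103 CPM. With AAV-shSCR its values were 892, 857, 880.5, 847 and 872 CPM, and with AAV-shA4 870.0, 888, 906, 887 and 893 CPM. All 10 SCA7 mice are below all WT mice, the early ones included, which had 1152, 1149 and 1169.9 CPM with AAV-shA4 and 1156, 1140.1 and 1083 CPM without. Atp2b2 fell by 21.9% with AAV-shSCR (log2 fold change −0.36, interval −0.42 to −0.30, adjusted p = 2.08e-07 by edgeR) and by 20.2% with AAV-shA4 (log2 fold change −0.33, interval −0.39 to −0.27, adjusted p = 7.34e-07 by edgeR). Its change is therefore small in size and large against the spread between mice, and it stays under the fold change of 1.3 that a call requires. Atp2b2 followed the PC marker sum with r = 0.986 over the late libraries and 0.802 within groups.

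Atp2b1 (ENSMUSG00000019943, chr10:98914406-99026143, plus strand) encodes PMCA1, the housekeeping form of most cells. Late WT mice had 241, 257, 251 and 252 CPM, AAV-shSCR-treated SCA7 mice 258, 263, 256, 276 and 272 CPM, and AAV-shA4-treated SCA7 mice 261, 255, 275, 253 and 267 CPM. The groups overlap. The log2 fold change compared to WT mice was 0.08 with AAV-shSCR (adjusted p = 0.0843 by edgeR) and 0.07 with AAV-shA4 (adjusted p = 0.180 by edgeR), and neither passed the test. The early values were 256, 269.9 and 251 CPM with AAV-shA4 and 254, 245 and 218 CPM without.

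Atp2b3 (ENSMUSG00000031376, chrX:73503086-73571005, plus strand) encodes PMCA3, a fast form found largely in neurons. Its values were 308, 344, 351 and 347 CPM in late WT mice, 298, 309, 321, 324 and 319 CPM with AAV-shSCR and 281, 287, 274, 292 and 322 CPM with AAV-shA4. WT replicate 1 lies apart from the other WT mice and within the range of the SCA7 mice. Atp2b3 fell by 13.8% with AAV-shA4 compared to WT mice (log2 fold change −0.21, adjusted p = 0.00465 by edgeR), with overlapping groups. With AAV-shSCR the log2 fold change was −0.10 (adjusted p = 0.148 by edgeR), and the adjusted p was 0.0367 without WT replicate 1. In the early mice it was at 258, 299 and 271 CPM with AAV-shA4 and at 295, 303 and 283 CPM without.

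Atp2b4 (ENSMUSG00000026463, chr1:133699457-133801041, minus strand) encodes PMCA4, a slower form. The 4 late WT mice had 72.7, 69.9, 70.7 and 72.5 CPM, the AAV-shSCR-treated SCA7 mice 67.7, 66.2, 67.6, 61.1 and 65.3 CPM, and the AAV-shA4-treated SCA7 mice 68.4, 63.5, 63.0, 59.1 and 62.0 CPM. The SCA7 mice do not overlap with the late WT mice. It fell by 8.19% with AAV-shSCR (adjusted p = 0.0431 by edgeR) and by 11.5% with AAV-shA4 (adjusted p = 0.00621 by edgeR), both under the limit of fold change. The adjusted p with AAV-shSCR went above 0.05 without any 1 of 7 libraries, AAV-shSCR replicate 2, 4 or 5 or any WT mouse, and reached 0.110. The early values of 67.5, 83.6 and 73.0 CPM with AAV-shA4 and 69.1, 70.7 and 75.3 CPM without reach into the range of the SCA7 mice.

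The ryanodine receptors did not move together. Ryr3 (ENSMUSG00000057378, chr2:112631355-113217096, minus strand) encodes RyR3, a form of brain and other tissues with a wide and low expression. Its level was 27.9, 24.8, 31.1 and 24.2 CPM in late WT mice. With AAV-shSCR its values were 37.0, 38.9, 35.6, 48.2 and 46.0 CPM, all above the WT mice. With AAV-shA4 they were 33.8, 28.9, 34.3, 41.0 and 42.1 CPM, and replicate 2 lies within the WT range. Ryr3 rose by 52.1% with AAV-shSCR (log2 fold change 0.60, interval 0.37 to 0.84, adjusted p = 0.00145 by edgeR) and by 33.1% with AAV-shA4 (log2 fold change 0.41, interval 0.17 to 0.65, adjusted p = 0.0226 by edgeR). The call with AAV-shA4 was lost without AAV-shA4 replicate 4 or 5 or WT replicate 2 or 4, with log2 fold changes of 0.363, 0.349, 0.376 and 0.364 and adjusted p of 0.0543, 0.0596, 0.0710 and 0.0779 by edgeR. Early levels were lower, at 16.4, 20.7 and 15.8 CPM with AAV-shA4 and 17.96, 19.0 and 20.6 CPM in untreated WT mice.

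Ryr3 overlaps Aven, a protein-coding gene on the opposite strand, measured at 6.30 to 10.3 CPM, up to 51.3% of the CPM of Ryr3 in a library. If reads had been counted without strand they could not be told apart, and whether the counting used strand is not given in the sources used here. The log2 fold change of Aven was −0.04 with AAV-shSCR (adjusted p = 0.842 by edgeR) and −0.13 with AAV-shA4 (adjusted p = 0.517 by edgeR), against the positive values of Ryr3. Between the ages of untreated WT mice Aven had a log2 fold change of the same sign as Ryr3, at 0.31 (adjusted p = 0.0677 by edgeR). The other genes that overlap a member reach at most 0.515% of its CPM.

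Ryr1 (ENSMUSG00000030592, chr7:29003344-29125179, minus strand) encodes RyR1, the release channel of skeletal muscle, which in the cerebellum is found mainly in PCs. It had 57.5, 69.1, 62.9 and 61.7 CPM in late WT mice, 52.1, 47.9, 57.2, 47.0 and 52.1 CPM with AAV-shSCR and 47.4, 47.0, 59.7, 54.3 and 57.0 CPM with AAV-shA4. The AAV-shSCR-treated mice lie just below the WT mice, and AAV-shA4 replicate 3 reaches into the WT range. Ryr1 fell by 18.2% with AAV-shSCR (log2 fold change −0.29, adjusted p = 0.0139 by edgeR) and by 15.4% with AAV-shA4 (log2 fold change −0.24, adjusted p = 0.0407 by edgeR), under the limit of fold change. Without WT replicate 2 the adjusted p by edgeR came to 0.0549 in the comparison of AAV-shSCR and 0.137 in that of AAV-shA4. The adjusted p with AAV-shA4 also went above 0.05 without AAV-shA4 replicate 1, 2 or 4 or WT replicate 3 or 4, with robust estimation (0.0513) and with those 2 groups fitted alone (0.0645). Ryr1 followed the PC marker sum with r = 0.839, and 0.755 within groups, where Ryr2 had −0.309 and 0.164 and Ryr3 had −0.784 and −0.226. In early mice it was at 46.5, 51.3 and 54.8 CPM with AAV-shA4 and at 51.8, 54.5 and 52.9 CPM without.

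Ryr2 (ENSMUSG00000021313, chr13:11553102-12106945, minus strand) encodes RyR2, the release channel of the heart and the most widespread one in the brain. Late WT mice had 267, 285, 284 and 256 CPM, AAV-shSCR-treated mice 261, 300.4, 284, 304 and 319 CPM, and AAV-shA4-treated mice 259, 273, 299.7, 276 and 303 CPM. The 3 late groups overlap. The log2 fold change compared to WT mice was 0.10 with AAV-shSCR (interval −0.02 to 0.22, adjusted p = 0.237 by edgeR) and 0.05 with AAV-shA4 (interval −0.07 to 0.17, adjusted p = 0.661 by edgeR).

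A gene was called when it changed by more than 1.3-fold and its adjusted p was below 0.05. With AAV-shSCR compared to WT mice 3 of 9 members were called, against 4.02% of the 14862 genes tested. Atp2a2 and Atp2a3 were called lower, against 2.66% of all genes, and Ryr3 higher, against 1.35%. At the adjusted p alone 6 members passed, against 15.5% of all genes, of which 5 were lower, against 8.65%, and 1 was higher, against 6.89%. Groups did not overlap in 6 members, against 16.8%. With AAV-shA4 compared to the same 4 WT mice, 3 of 9 were called, against 3.45% of all genes, with 2 lower, against 2.27%, and 1 higher, against 1.18%. At the adjusted p alone 7 passed, against 13.6%, of which 6 were lower, against 8.11%, and 1 was higher, against 5.47%. Groups did not overlap in 4 members, against 13.4%. The median log2 fold change of the members was −0.12 for AAV-shSCR compared to WT mice and −0.21 for AAV-shA4, where the median over all genes tested was within 0.01 of 0. Both comparisons share their WT mice and are given side by side only. Since the members were chosen with earlier results of these data known, their counts beside those of all genes are a description and not a test.

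**Figure D3:**
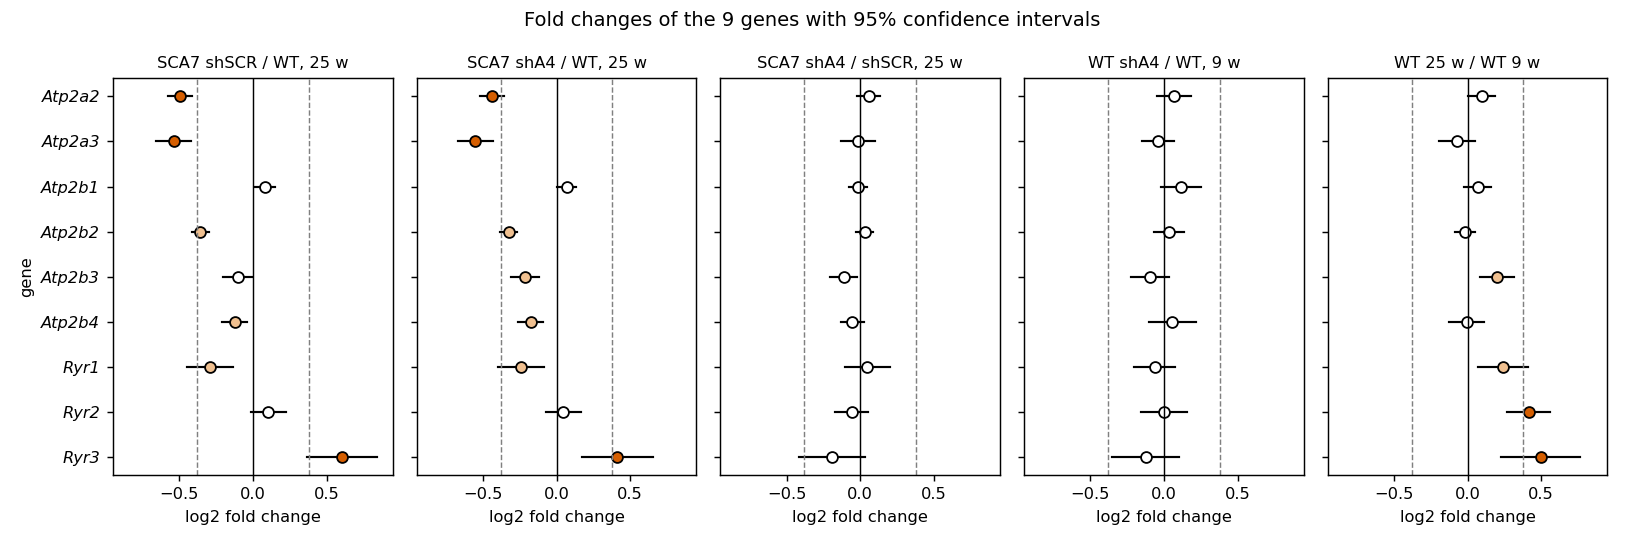
Log2 fold change of each member (horizontal axis) in the 5 comparisons, with the 95% confidence interval as a line, the limits of a 1.3-fold change dashed, called members in dark and members past the adjusted p alone in pale colour. Intervals of Atp2a2 and Atp2a3 lie below 0 in both comparisons of SCA7 to WT mice, that of Ryr3 lies above 0, and with AAV-shA4 compared to AAV-shSCR the intervals of 8 members include 0.

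Between the 2 SCA7 groups, the direct test of AAV-shA4, 0 of 9 members were called and 0 of 14862 genes (0%) passed the adjusted p in edgeR. Without adjustment 8.22% of all genes had p under 0.05, and Atp2b3 alone among the members. By DESeq2, 5 genes were called and 0 members. The 95% interval of the log2 fold change gives the differences that these mice allow. For Atp2a2 it was −0.02 to 0.13 around an estimate of 0.06, beside a deficit of −0.49 between AAV-shSCR-treated SCA7 and WT mice. For Atp2a3 it was −0.13 to 0.10, beside a deficit of −0.54. For Atp2b2 it was −0.03 to 0.09, beside a deficit of −0.36, so a return to the WT level lies outside the interval in these 3 genes. For Atp2b1 it was −0.08 to 0.05. Atp2b3 had an estimate of −0.11 and an interval of −0.20 to −0.02 (unadjusted p = 0.0206, adjusted p = 0.550 by edgeR), away from the WT level. Ryr3 had an estimate of −0.19 and an interval of −0.41 to 0.03 (adjusted p = 0.640 by edgeR), toward the WT level. The intervals of Atp2b4 (−0.13 to 0.03), Ryr1 (−0.10 to 0.20) and Ryr2 (−0.17 to 0.05) also include 0. No member had groups without overlap, against 1.49% of genes.

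In WT mice at the early time, differences between AAV-shA4-treated and untreated mice were within the spread between mice for all 9 members. No member was called, against 8 of 14733 genes or 0.0543%, and none passed an unadjusted p under 0.05, against 11.1% of all genes. Estimates ran from −0.12 for Ryr3 (interval −0.35 to 0.10) to 0.12 for Atp2b1 (interval −0.02 to 0.25, adjusted p = 0.505 by edgeR). No member had groups without overlap, a separation that 16% of all genes showed.

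The untreated WT mice differed between the 2 ages in the ryanodine receptors more than in the pumps. Ryr2 rose by 33.4% from the early to the late WT mice, from 202, 216 and 196 CPM to at least 256 CPM (log2 fold change 0.42, standard error 0.070, adjusted p = 0.000266 by edgeR). Ryr3 rose by 41.0% (log2 fold change 0.50, standard error 0.13, adjusted p = 0.00871 by edgeR). These 2 of 9 members were called, against 5.27% of 15095 genes, or 3.29% that were called higher. Ryr1 rose by 18.3% (adjusted p = 0.0343 by edgeR) and Atp2b3 by 14.99% (adjusted p = 0.0121 by edgeR), so that 4 members passed the adjusted p, against 24.2% of all genes, and all 4 were higher, against 12.2%. The same 4 had groups without overlap, against 33.4%. Ryr1 went above an adjusted p of 0.05 without any 1 of 6 of the 7 WT libraries, all but late replicate 1, at up to 0.104, and Atp2b3 without early replicate 3, at 0.0684. The estimates were 0.10 for Atp2a2 (adjusted p = 0.126), −0.07 for Atp2a3 (adjusted p = 0.416), 0.07 for Atp2b1 and −0.02 for Atp2b2 (adjusted p = 0.757), by edgeR. Age and experiment coincide in this comparison and cannot be told apart. Oligodendrocyte markers were lower in the late WT mice, by a median of −0.44 with sums of 5617 to 6661 CPM against 7926 to 8223 CPM, and their part in these values was not tested.

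Levels of different genes can be set side by side only per length of transcript. With the longest coding transcript as length, Atp2a2 was the highest member in late WT mice, at 360 ± 13.0 CPM per kb (SD, n = 4), followed by Atp2b2 at 125 ± 3.77, Atp2a3 at 88.0 ± 6.56, Atp2b3 at 72.8 ± 4.24 and Atp2b1 at 35.1 ± 0.903. Ryr2 stood at 16.3 ± 0.824 CPM per kb, Atp2b4 at 6.09 ± 0.119, Ryr1 at 4.09 ± 0.310 and Ryr3 at 1.75 ± 0.205. The ranges of neighbours in this order do not overlap. The order depends on the length chosen. With the median length of a gene's transcripts Ryr2 was at 188 CPM per kb, after Atp2a2 at 405 and Atp2b2 at 217 and before Atp2b1 at 171.4, Atp2a3 at 89.7 and Atp2b3 at 75.3, and Ryr1 was at 22.6, Atp2b4 at 18.1 and Ryr3 at 13.6 CPM per kb. The values that follow use the longest coding transcript. In AAV-shSCR-treated SCA7 mice Atp2a3, at 60.5 ± 3.43 CPM per kb, and Atp2b3, at 67.8 ± 2.33, had changed places with overlapping ranges. With AAV-shA4 they were at 59.99 ± 4.07 and 62.8 ± 3.96 CPM per kb and overlapped as well. SERCA levels summed to 448 CPM per kb in late WT mice, 316 with AAV-shSCR and 326 with AAV-shA4, PMCA levels to 239, 209 and 205, and ryanodine receptor levels to 22.1, 23.5 and 22.6. The early sums were 429, 230 and 16.9 CPM per kb in untreated and 444, 233 and 16.7 in AAV-shA4-treated WT mice.

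The make-up of a family, each member's share of the summed level per kb, was compared by exact two-sided permutation tests, adjusted over 33 late tests. Shares within a family add up to a fixed total, so they are not independent. The share of Atp2b2 among PMCA genes was 52.4% ± 0.691 in late WT mice (SD, n = 4), 47.0% ± 1.101 with AAV-shSCR and 48.8% ± 0.937 with AAV-shA4 (SD, n = 5 each). Atp2b1 took 14.7% ± 0.179, 17.8% ± 0.543 and 17.9% ± 0.562. Both SCA7 groups lie apart from the WT mice in these shares (exact permutation p = 0.0159 each, the smallest that 5 against 4 mice can give, adjusted p = 0.0374). The share of Atp2b3 was 30.4% in WT mice and 32.5% with AAV-shSCR (exact permutation p = 0.0159, adjusted p = 0.0374), and 30.6% with AAV-shA4 (adjusted p = 0.868, exact permutation test). With the median transcript length the Atp2b3 difference with AAV-shSCR was 0.392 points and did not pass (adjusted p = 0.424, exact permutation test).

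Among ryanodine receptors Ryr1 took 18.5% ± 1.03 in late WT mice, 14.3% ± 1.67 with AAV-shSCR and 15.3% ± 0.678 with AAV-shA4. Ryr3 took 7.90% ± 0.810, 11.3% ± 1.06 and 10.3% ± 1.23. Both receptors had SCA7 groups apart from the WT mice (exact permutation p = 0.0159, adjusted p = 0.0374 each). The Ryr3 share with AAV-shA4 did not pass with the median transcript length (adjusted p = 0.0873, exact permutation test). With that length the differences of AAV-shSCR-treated and AAV-shA4-treated mice from WT mice were 5.89 and 5.82 points in the Atp2b1 share and −2.38 and −1.83 points in the Ryr1 share, and all 4 passed. Ryr2 took 73.6%, 74.4% and 74.4% (adjusted p = 0.342 and 0.463 by exact permutation tests). Atp2a3 took 19.6% of SERCA in WT mice, 19.2% in AAV-shSCR-treated and 18.4% in AAV-shA4-treated mice, and neither passed the test (adjusted p = 0.463 and 0.196 by exact permutation tests). With any 1 late mouse left out, fewer arrangements of the mice are possible and no share passed, with adjusted p of 0.0589 to 0.0842 for the passing shares with AAV-shA4 and 0.0673 to 0.0842 with AAV-shSCR by exact permutation tests. The Atp2b2 share between the SCA7 groups, given next, then had 0.0524 to 0.0748 by the same tests.

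**Figure D4:**
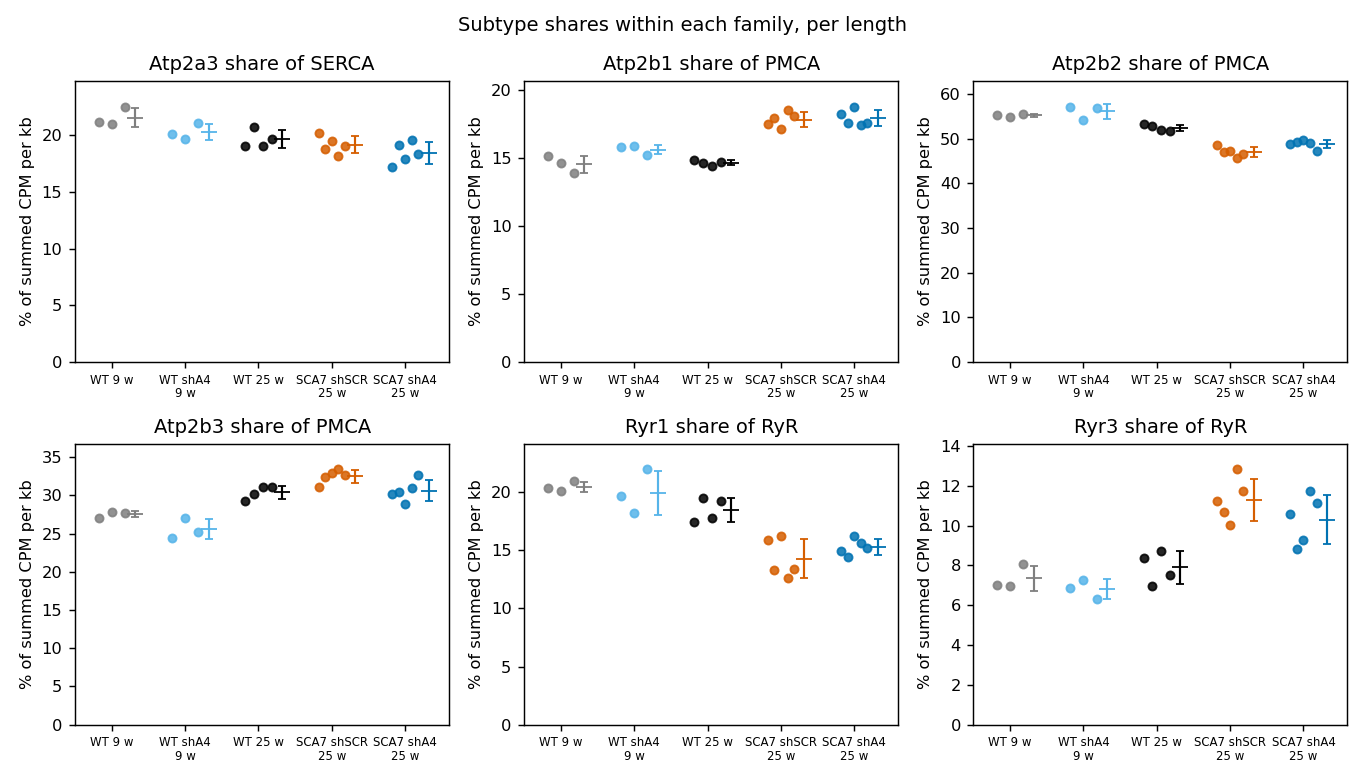
Share of 6 members in the summed level per kb of their family (percent, vertical axis from 0) in the 5 groups, 1 point per mouse, with the mean and SD beside the points. The Atp2b2 share is lower and the Atp2b1 share higher in both SCA7 groups than in late WT mice (52.4% against 47.0% and 48.8%, and 14.7% against 17.8% and 17.9%).

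Between the SCA7 groups the share of Atp2b2 was higher with AAV-shA4 by 1.84 points (exact permutation p = 0.0159, adjusted p = 0.0374), with overlapping groups. The adjusted p was 0.131 with the median transcript length and 0.0561 without division by length, so the call depends on the length used. The Atp2b3 share differed by −1.90 points (exact permutation p = 0.0397, adjusted p = 0.0873). In the early and age comparisons the smallest p possible is 0.1 and 0.0571, and only values are given. In early WT mice the Atp2b1 share of PMCA was 14.6% without and 15.6% with AAV-shA4. The Atp2b3 share was 27.6% without and 25.6% with it. Both differences were without overlap, and the other early shares and sums overlapped. From early to late untreated WT mice the Atp2a3 share of SERCA went from 21.6% to 19.6%, the Atp2b2 share of PMCA from 55.2% to 52.4% and the Atp2b3 share from 27.6% to 30.4%, each without overlap.

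Partners of the pumps and channels were read from a list of 69 genes of calcium storage, release and clearance, 65 of which were tested in the late mice. With AAV-shSCR compared to WT mice 5 were called, against 4.02% of all genes. Homer3, a scaffold that ties glutamate receptors to ER calcium release channels, fell from 469 to 532 CPM in WT mice to 303 to 365 CPM (log2 fold change −0.59, adjusted p = 4.52e-07 by edgeR). Itpr1, the IP3 receptor of PCs and itself one of the 12 PC markers, fell from 4477 to 3353 CPM on average (log2 fold change −0.42, adjusted p = 9.18e-06 by edgeR). Hspa5, an ER chaperone that binds calcium, fell by 0.39 on the log2 scale (adjusted p = 0.0327 by edgeR). Slc8a3, a sodium-calcium exchanger, rose from 46.2 to 49.7 CPM to 56.2 to 67.7 CPM (log2 fold change 0.39, adjusted p = 2.26e-05 by edgeR). Mrln, a small inhibitor of SERCA known from muscle, rose from 3.01 to 4.46 CPM on average (adjusted p = 0.0113 by edgeR), a low level beside that of the pumps.

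**Figure D5:**
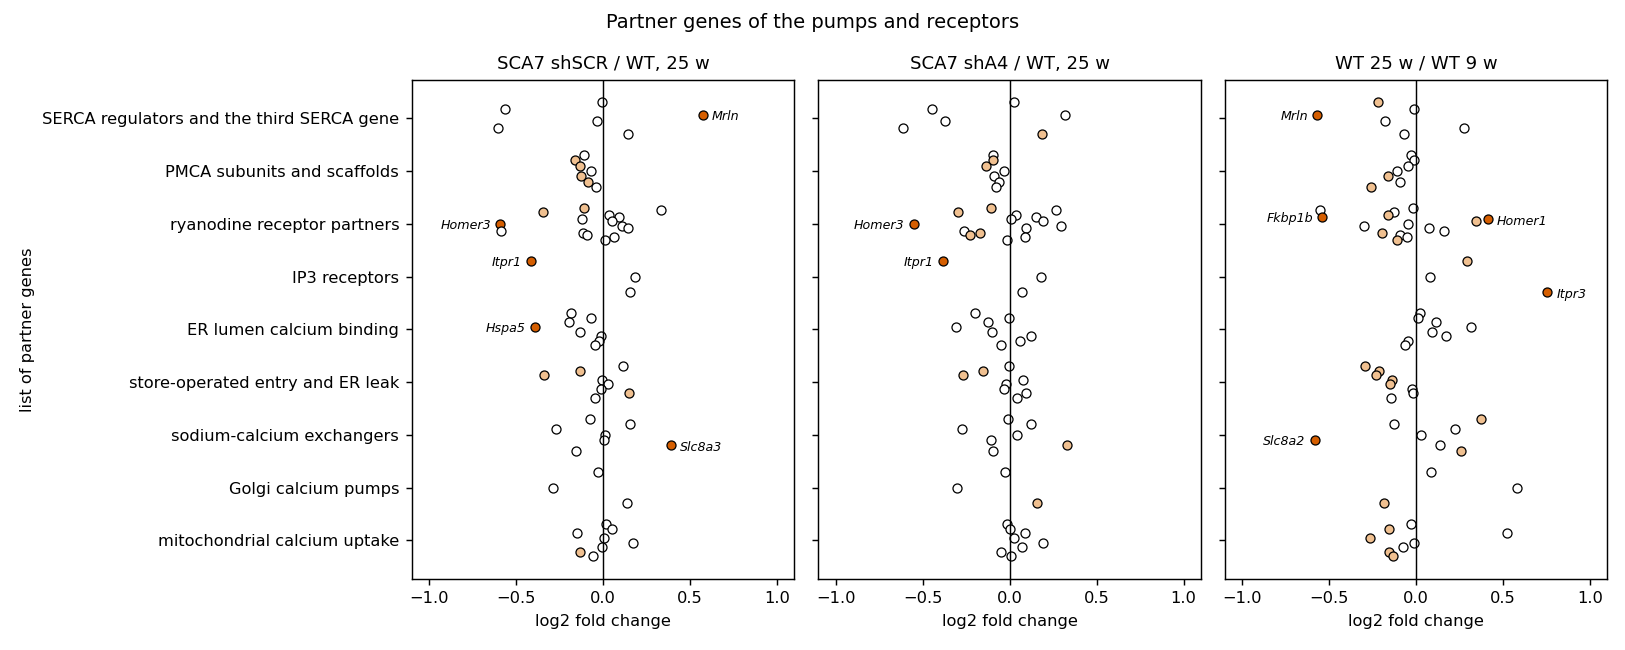
Log2 fold change (horizontal axis) of the 65 tested partner genes, 1 point per gene in rows by list, for both SCA7 groups compared to WT mice and for late compared to early WT mice. Called genes are dark and named, and genes past the adjusted p alone are pale. Homer3 and Itpr1 are called lower in both SCA7 groups, at −0.59 and −0.42 with AAV-shSCR and −0.55 and −0.38 with AAV-shA4, the last near the fold limit.

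All 7 PMCA subunits, activators and scaffolds had negative log2 fold changes with AAV-shSCR, and 4 of them passed the adjusted p, among them Calm2 with −0.13, Dlg4 with −0.12 and Nptn with −0.09, where 15.5% of all genes passed and 8.65% passed lower. Of 15 tested ryanodine receptor partners 3 passed the adjusted p, all lower, against 8.65% of all genes. Of 8 genes of calcium binding in the ER lumen 1 passed, also lower. In the same order of lists, 2 of 7, 5 of 15 and 0 of 8 passed lower with AAV-shA4, against 8.11% of all genes. With AAV-shA4 compared to WT mice 2 partners were called, Homer3 (log2 fold change −0.55, adjusted p = 1.16e-06 by edgeR) and Itpr1 (−0.38, adjusted p = 2.51e-05 by edgeR), against 3.45% of all genes. The value of Itpr1, −0.383, is near the fold limit of 0.379 on the log2 scale. The paper, which used DESeq2 and the same fold limit, counts Itpr1 among the PC-specific genes restored with AAV-shA4. Without AAV-shA4 replicate 1 the number of partners called was 1. For Slc8a3 the log2 fold change was 0.33 (adjusted p = 0.000145 by edgeR), for Mrln 0.32 (adjusted p = 0.169 by edgeR). Between the SCA7 groups no partner passed, and the smallest adjusted p was that of Jph4, a junctophilin, at 0.483 by edgeR with a log2 fold change of −0.13. In early WT mice AAV-shA4 called no partner either (Slc8a2 −0.32, adjusted p = 0.0915 by edgeR).

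From early to late untreated WT mice 5 partners were called, against 5.27% of all genes. Slc8a2, a sodium-calcium exchanger of neurons, fell from 269 to 179 CPM (adjusted p = 2.36e-06 by edgeR), and Fkbp1b, a stabilising partner of ryanodine receptors, fell from 11.0 to 7.59 CPM (adjusted p = 0.000189 by edgeR). Mrln fell from 4.46 to 3.01 CPM (adjusted p = 0.00687 by edgeR). Itpr3 rose from 31.7 to 53.5 CPM (adjusted p = 1.83e-06 by edgeR) and Homer1 from 34.1 to 45.5 CPM (adjusted p = 0.0109 by edgeR). Early WT mice with AAV-shA4, outside this comparison, had 46.8, 49.3 and 33.1 CPM of Homer1, beside 42.5 to 48.6 CPM in late WT mice. The treated mice had 196 to 230 CPM of Slc8a2 and 3.26 to 3.74 CPM of Mrln, between untreated early and late mice. In Fkbp1b and Itpr3 they overlapped the untreated early mice. Of 8 genes of store-operated entry and ER leak 5 fell at the adjusted p, which 24.2% of all genes passed in either direction, among them Stim1 by 0.15 on the log2 scale. The number called was 8 without early untreated replicate 1.

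The genes whose log2 CPM followed a member most closely were sought among 11378 genes over the 14 late libraries, which share their group structure, so that a high r partly restates the difference between SCA7 and WT mice. Atp2a2 was followed most closely by Pde5a, Etl4 and Atp2b2 (r = 0.989, 0.987 and 0.984), and Atp2b2 by Rgs8, Icmt and Dner (0.996, 0.995 and 0.992). Ryr3 was followed by Tmem131l, Ddx17 and Grik2 (0.945, 0.942 and 0.942), Ryr2 by Hnrnpu, Nfat5 and Zfp871 (0.935, 0.914 and 0.905), and Ryr1 by Btbd10, Tm6sf1 and March4 (0.919, 0.910 and 0.907). The r of Atp2b1 with Hdx was 0.940 and of Atp2b4 with Entpd6 0.890. Within the set, Atp2a2, Atp2a3 and Atp2b2 followed one another, with r of 0.955 to 0.984, while Ryr1 and Ryr3 had r = −0.560. After each group's mean was removed, these pumps had r of 0.578 to 0.887, and Ryr1 and Ryr3 had r = 0.0576.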

How the data were processed

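Cerebellar RNA of 20 mice was measured by the authors with stranded, polyA-selected libraries. The deposited values are raw read counts per gene, which the authors made by trimming with cutadapt 1.10, removing ribosomal reads with Bowtie2 2.2.8, mapping to GRCm38 (mm10) with STAR 2.5.3a and counting with HTSeq 0.6.1p1 on Ensembl release 102, per the labels and the submitters' processing notes. Whether the counting used strand is not given in the sources used here. Gene names, positions and transcripts were taken from GENCODE release M21, which holds 55141 of the 55401 genes.

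For protein-coding genes the counts were fitted by edgeR 4.0.16 (R 4.3.3) with TMM normalization and its quasi-likelihood test in the non-robust form, after filterByExpr at its limits of 10 reads and 15 reads in total. The 14 late libraries were fitted together, the 6 early libraries together, and all 20 for the comparison of ages. Adjustment followed Benjamini and Hochberg over all genes tested, and a gene was called when it changed by more than 1.3-fold at an adjusted p below 0.05. Standard errors and 95% intervals come from the same fit. Shares of a family were computed from CPM per kb of the longest coding transcript and tested by exact permutation with scipy 1.17.1. Counts range from 31465586 to 54570503 per library, and mice of a group varied by a common coefficient of 0.0790 in the late and 0.0729 in the early fit, so precision is set by differences among mice more than by depth. The edgeR fits and the permutation test were tested on simulated data.

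The members, the partner list and the marker lists were chosen with earlier results of these data known. Named partners are those called in any comparison and the 3 with the smallest adjusted p in each, and genes named for likeness are the 3 with the highest r over late libraries with a mean of at least 5 CPM, and some of these results are not reported here. Further partners are named as examples of a list's count and were chosen after their values were seen. Of 69 partners, 4 had too few reads to be tested in the late mice (Strit1, Erln, Trdn and Jsrp1). Alternatives were DESeq2 1.42.0 and its size factors, no filter, all genes, robust estimation, other libraries in the fit, a replicate block, other fold limits, other lengths and each library left out. The fit without both libraries that stand apart, and the count of partners under each alternative, were added after seeing the data. Replicate numbers were not treated as pairs, since within each comparison the sample titles give each mouse its own animal number. The correlation of same-numbered deviations ran from −0.258 to 0.557, which cannot by itself show whether mice are paired. The highest value was between AAV-shA4-treated SCA7 replicate 1 and late WT replicate 1, the libraries that stand apart.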

Additional observations from a re-analysis of the deposited data

Results flagged for a closer look

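Groups of 4 or 5 mice were tested for a mouse far from the others, 27 for members, 33 for shares and sums and 42 for partners, and 3 of them held one, where chance gives about 1 in 20. Atp2a2 in AAV-shSCR-treated SCA7 replicate 4 was the lowest of 5 at 1118 CPM, with the next mouse at 1146 and the highest at 1156 CPM. The SERCA sum of the same mouse was the lowest of 5 as well, at 305 CPM per kb against 317 to 320.2 in the others. Atp2b3 in late WT replicate 1 was the lowest of 4 at 308 CPM, with the others between 344 and 351 CPM.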

How the results depend on the processing

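Compared to WT mice 3 members were called in AAV-shSCR-treated and 3 in AAV-shA4-treated SCA7 mice, and 2 differed between the ages. Without a fold limit these became 6, 7 and 4, and with a limit of 1.5 they became 1, 0 and 0. The partners called, 5, 2 and 5, became 15, 13 and 25 without a fold limit and 1, 0 and 1 with a limit of 1.5. Without a fold limit 15.5%, 13.6% and 24.2% of all genes passed, in the same order. With each library left out, members called ranged from 3 to 3, 2 to 3 and 2 to 2, and partners from 4 to 5, 1 to 3 and 5 to 8, in the same order, and 0 were called in both comparisons of AAV-shA4 to its controls. Over all genes, those called then ranged from 498 to 596, 452 to 572 and 652 to 790, in the same order. With AAV-shSCR compared to WT mice, whether a member was called, by adjusted p and fold together, and its direction stayed as reported in all 63 values under other settings and all 90 with a library left out. With AAV-shA4 compared to WT mice they did in 62 of 63 and 86 of 90, and the exceptions are all Ryr3. The adjusted p alone crossed 0.05 more often, in Atp2b4, Ryr1 and Atp2b3 with AAV-shSCR, the last at 0.0449 with the replicate block, and in Ryr1 with AAV-shA4, at 0.0513 with robust estimation and 0.0645 with those 2 groups fitted alone.

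The replicate number shares no animals here. With a replicate block, members called were 3, 2, 0, 0 and 2, and partners 4, 2, 0, 0 and 6, in the order AAV-shSCR and AAV-shA4 compared to WT, AAV-shA4 compared to AAV-shSCR, early and age. Over all genes 563, 488, 0, 37 and 796 were called with the block, in that order. Ryr3 with AAV-shA4 fell under the fold limit in that fit, at 0.350, and Atp2b4 between ages changed sign, at 0.0159. The early log2 fold change of Ryr2, near 0, was 0.00353 with DESeq2 size factors, 0.0035 by the DESeq2 test, 0.00271 without a filter, 0.0028 with all genes and 0.00171 with all 20 libraries. With a library left out, estimates near 0 changed sign. Between the SCA7 groups Atp2a3 ranged from −0.0434 to 0.0265 and Atp2b1 from −0.0326 to 0.000123. In early mice Atp2b4 ranged from −0.0273 to 0.123 and Ryr2 from −0.0843 to 0.0498. Between ages Atp2b2 ranged from −0.0441 to 0.0028 and Atp2b4 from −0.0309 to 0.0321.

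Of 33 late shares and sums, 14 passed, 11 with the median transcript length, 13 without division by length and 0 to 0 with a library left out, where fewer arrangements of the mice are possible. In early and age comparisons 8 of 22 had no overlap, 6 with the median length, 7 without division and 8 to 11 with a library left out. With the median length the difference of the Ryr2 share with AAV-shSCR was −0.127 points, of Atp2b3 and Atp2b4 with AAV-shA4 −0.651 and −0.0667, and of Atp2b1 between the SCA7 groups −0.0667, or −0.0824 without division. The Atp2b3 share with AAV-shSCR (0.392, adjusted p = 0.424 by exact permutation) and the Ryr3 share with AAV-shA4 (1.77, adjusted p = 0.0873 by exact permutation) no longer passed with the median length, nor did Atp2b2 between the SCA7 groups (1.21, and 1.63 without division). With a library left out, the Atp2b3 share with AAV-shA4 ranged from −0.301 to 0.646 points, the log2 of the ryanodine receptor sum from −0.000595 to 0.0605, and, between the SCA7 groups, the Atp2b1 share from −0.104 to 0.280 and the Ryr2 share from −0.570 to 0.446. The cause was not tested. Level orders between genes rest on the annotated length chosen.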
